A study of Bos taurus with 39 samples.

Results

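The 12 libraries described here are the control and CBX oocytes matured in vitro for 1 h and for 6 h, out of 39 bovine (Bos taurus) oocyte libraries in the series. They were chosen by their titles, which give the group, the maturation time and a replicate number, and each of the 4 combinations of group and time holds 3 libraries. All of these oocytes stayed enclosed by their cumulus cells during maturation and were stripped of them before RNA extraction. The CBX group differed by the presence of carbenoxolone, a derivative of glycyrrhetinic acid that blocks gap junctions, in the maturation medium. The labels give no strain, age or genotype, and the oocytes of a library were pooled from follicles of slaughterhouse ovaries. The methods describe a selection for a visible polar body and do not say how it was applied at 1 h and 6 h. The comparison asks whether the miRNA content of an oocyte differs when its gap junctions with the cumulus are blocked, early in maturation.

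Gap junctions are channels of connexin proteins through which an oocyte and the surrounding cumulus cells exchange ions, cyclic nucleotides and metabolites. The cumulus projections that reach the oocyte membrane are lost as maturation proceeds, and the early hours fall before the oocyte has completed its first meiotic division. A miRNA is a short RNA that pairs through its seed, bases 2 to 8 from its 5′ end, with target transcripts and represses them. Oocytes hold miRNAs of their own and store many transcripts for use after transcription has stopped.

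The values were counts of deduplicated reads on mature miRNAs, known from miRBase or predicted by the miRPro program and given here by the number they carry in the count table (predicted miR-79 and so on). Totals ranged from 20180 to 146599 counts with a median of 58879.5, and both ends belonged to 1 pair, the control and the CBX library of replicate 1 at 6 h. That control library also had the fewest miRNAs detected, 746 against 941 to 1128 in the other libraries, and the highest share of known miRNAs, 50.6% against 40.2% to 46.9%. Its log2 levels correlated with those of its CBX pair at r = 0.76 across 469 miRNAs, where the other 5 pairs gave 0.89 to 0.97. Totals were higher in the CBX library of 5 of the 6 pairs (exact two-sided sign-flip permutation test, p = 0.156, smallest possible 0.03125), and at 6 h all 3 CBX totals exceeded all 3 control totals (exact permutation test, p = 0.1, the smallest possible with 3 against 3). Log2 fold changes, list medians and counts of calls at 6 h are therefore also given without the replicate 1 pair where it moved them by over 1.5 times or to the other side of 0. In these libraries 3 counts, taken as the floor, equal 20.5 to 148.7 CPM (counts scaled to a common library size) on the raw totals, which covers counting error only. On the TMM-normalized scale of the levels below, 3 counts in the low control library at 6 h equal 179.7 CPM. In such bulk RNA, fewer cells of a type and less RNA per cell cannot be told apart. Per the study's methods the experiment was repeated and its runs were joined before RNA isolation to give the 3 replicates. The labels do not say which ovary pool a library came from. The p-values, standard errors and intervals of the fits describe the spread between these libraries. That spread is estimated in part across all miRNAs tested, so it can differ from the spread of a miRNA's own pairs.

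Of the 1995 miRNAs in the table, 1323 had at least 1 count in the 12 libraries, 403 of them known and 920 predicted. The mature sequences of the miRNAs that the study itself named for CBX and that are followed here are printed with the seed in capitals. The first 7 were named for CBX against co-cultured or denuded oocytes at 1 h or 6 h, and predicted miR-318-0 shares a run of 17 bases with predicted miR-559 and predicted miR-484 a run of 13 bases with predicted miR-485, so that reads could be split between them. In all libraries predicted miR-559 had the same counts as predicted miR-560, and predicted miR-484 the same as predicted miR-486 and predicted miR-504, which cannot be told apart here.
predicted miR-79: uGCAAGAUuuuaagcaugaccuu
predicted miR-485: gGGGAUGUagcucagugg
predicted miR-484: gGGGGUGUagcucagugg
predicted miR-559: gGCGCGCCcccgccgcgc
predicted miR-318-0: gCGCGCCCccgccgcgcg
predicted miR-457: uCCCCGGCaccuccacca
predicted miR-824: gUCAGGAUggccgaguggucuaagg
The other 5 were named for CBX against control at 22 h.
bta-miR-21-5p: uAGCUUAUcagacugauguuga
predicted miR-162: uCCAUCUGgacggcuuggcauuggg
predicted miR-364: gGGCGCGAagcggggcug
predicted miR-895: gCGCCCCCggggccgcgg
predicted miR-906: gAGGGAUCccugccuagcggg
Among these sequences, those of predicted miR-318-0, predicted miR-559 and predicted miR-895 consist of G and C at all 18 bases. No other sequence of a named miRNA was read from the files.

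No miRNA passed the threshold of an adjusted p under 0.05 with a log2 fold change of 1 or more in size at either early time. At 1 h, edgeR's quasi-likelihood test with the replicate number as a block called 0 of 448 miRNAs (0% of those tested), and the smallest Benjamini-Hochberg adjusted p was 0.997. With a replicate left out at 1 h, it called 1 without replicate 1, 0 without replicate 2 and 4 without replicate 3. An unadjusted p under 0.05 was reached by 11 of them (2.46%), 7 with a higher and 4 with a lower level in CBX, and DESeq2 called 0 with 1 at an unadjusted p under 0.05. At 6 h, edgeR called 0 of 395 (0%), with a smallest adjusted p of 0.938 and 7 miRNAs (1.77%) at an unadjusted p under 0.05, 4 higher and 3 lower. DESeq2 also called 0 at 6 h, with 8 at an unadjusted p under 0.05 and a smallest adjusted p of 0.0856. Without the replicate 1 pair, edgeR again called 0 of 409 at 6 h, and 23 had an unadjusted p under 0.05, 15 higher and 8 lower.

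How far these data limit a change differed between the times. The 95% interval of the log2 fold change lay within -1 to 1, that is, within a 2-fold change either way, for 285 of 448 miRNAs (63.6%) at 1 h but for 41 of 395 (10.4%) at 6 h. The median standard error was 0.31 at 1 h and 0.48 at 6 h. When the replicate 1 pair was left out, the standard error at 6 h was 0.32 and 112 of 409 intervals (27.4%) lay within those bounds, with fewer libraries in the fit. At 6 h, 0 intervals did so without replicate 2 or without replicate 3. At 1 h the share was 35.6% to 42.1% with a replicate left out, and DESeq2 gave 134 of 448. At 1 h, a 2-fold lower level was inside the interval of 100 miRNAs and a 2-fold higher level inside that of 80, and at 6 h inside those of 216 and 208. For most miRNAs at 6 h the interval thus reached a 2-fold difference in at least 1 direction, and the data there cannot show that a level was alike in both groups.

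The smallest p at 1 h belonged to predicted miR-79. Its level was 878, 296 and 2514 TMM-normalized CPM in control replicates 1 to 3 and 1838, 1906 and 2854 CPM in the CBX replicates. The groups overlapped, since control replicate 3 exceeded both CBX replicates 1 and 2, while the CBX library was the higher in all 3 pairs. The log2 ratios of these pairs were 1.04, 2.58 and 0.18. The fitted log2 fold change was 1.16 ± 0.35 (n = 3 pairs), with an unadjusted p of 0.00321 by edgeR, adjusted p = 0.997. This standard error (SE) draws on all miRNAs tested and is not the spread of the 3 pairs. At 6 h the control libraries held 479, 1130 and 16.6 CPM and the CBX libraries 735, 1253 and 836 CPM, again higher in each pair. At 6 h the fitted log2 fold change was 1.44 ± 0.85 (unadjusted p = 0.122) and was 0.35 ± 0.73 without replicate 3, whose control library held 1 count against 49 in its CBX pair, and 1.54 ± 1.09 without replicate 1. Over both times it was 1.29 ± 0.51 (n = 6 pairs, unadjusted p = 0.0307 by edgeR). Without replicate 3 the value at 1 h was 1.71 ± 0.35 and passed the threshold (adjusted p = 0.000284 by edgeR), and without replicate 2 it was 0.61 ± 0.33. The standard error and p without replicate 3 likewise do not measure the spread of the pairs left, at 1.04 and 2.58. The study named this miRNA for CBX against co-cultured oocytes at 1 h, a comparison that contains these CBX libraries, so its values at 1 h are not independent of that choice.

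Among known miRNAs at 1 h, the smallest p-values belonged to bta-miR-497, bta-miR-155 and bta-let-7e. The level of bta-miR-497, a member of the wider miR-15/16 seed family, was 326, 148 and 308 CPM in control and 672, 401 and 362 CPM in CBX, with no overlap. All CBX libraries lay above all control libraries for 9 of the 448 miRNAs tested at 1 h (2.01%) and below them for 4 (0.893%). The log2 fold change of bta-miR-497 was 0.84 ± 0.32 at 1 h (unadjusted p = 0.0168) and 0.51 ± 0.74 at 6 h, where control replicate 1 had 0 counts, and the value at 6 h was -0.13 ± 0.40 without that pair.
For bta-miR-155, which is best known from activated immune cells, control libraries at 1 h held 293, 478 and 162 CPM and CBX libraries 1242, 301 and 452 CPM. Replicates 1 and 3 were higher in CBX and replicate 2 lower, with a log2 fold change of 1.03 ± 0.41 (unadjusted p = 0.02). At 6 h the levels were 4612, 1940 and 2517 CPM in control and 819, 1122 and 3496 CPM in CBX, and the log2 fold change was -0.91 ± 0.59 (unadjusted p = 0.158) or -0.10 ± 0.41 without replicate 1. Every library at 6 h except CBX replicates 1 and 2 thus lay above all libraries at 1 h, a difference between times that was not tested.

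**Figure D1:**
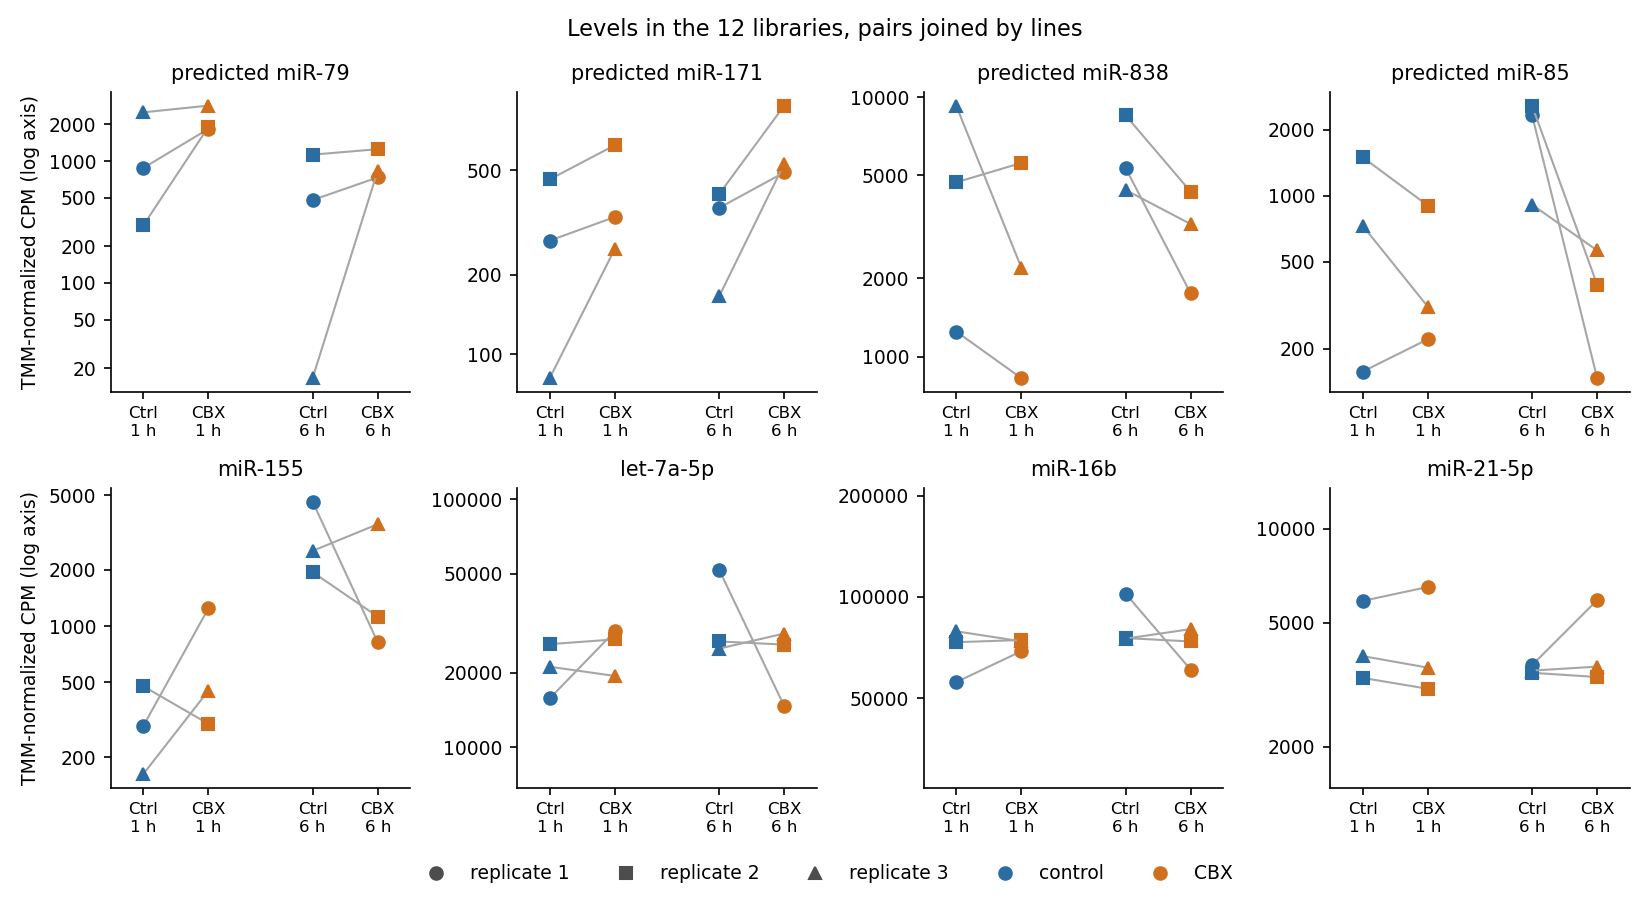
TMM-normalized CPM on a log axis in each of the 12 libraries for 8 miRNAs, with control in blue, CBX in orange, the marker shape giving the replicate number and lines joining pairs. For predicted miR-79 and predicted miR-171 the CBX point is the higher in all 6 pairs, while for let-7a-5p, miR-16b and miR-21-5p the replicate 1 pair at 6 h is the widest apart of the pairs at that time.

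At 6 h, the smallest p belonged to predicted miR-85, with 2336, 2580 and 911 CPM in control and 147, 393 and 563 CPM in CBX. The groups did not overlap, and the log2 fold change was -2.44 ± 0.66 (unadjusted p = 0.00476, adjusted p = 0.938 by edgeR). Without the replicate 1 pair it was -1.67 ± 0.58. Without a low-count filter it was -2.30 and passed the threshold (adjusted p = 0.0333 by edgeR). At 1 h the control libraries held 158, 1499 and 729.8 CPM and the CBX libraries 221, 903 and 312 CPM, which overlapped, with a log2 fold change of -0.60 ± 0.33. The difference between the effects at 6 h and 1 h was -1.89 ± 0.83 (unadjusted p = 0.0475, adjusted p = 0.969).
Another of them, predicted miR-801, held 3534, 1258 and 1308 CPM in control and 1015, 711 and 716 CPM in CBX at 6 h. These groups did not overlap either, and the log2 fold change was -1.16 ± 0.42, or -0.82 ± 0.23 without replicate 1. At 6 h all CBX libraries lay below all control libraries for 25 of the 395 miRNAs tested (6.33%) and above them for 10 (2.53%). The known miRNA with the smallest p at 6 h was bta-miR-16a, which shares its seed with bta-miR-16b and is linked to restraint of the cell cycle. Its control libraries held 6350, 20833 and 9871 CPM and its CBX libraries 15702, 25589 and 18232 CPM, higher in all 3 pairs but overlapping. Its log2 fold change was 0.83 ± 0.31 at 6 h (unadjusted p = 0.0236), 0.62 ± 0.22 without replicate 1, and 0.02 ± 0.27 at 1 h.

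When 1 CBX effect was fitted over the 6 pairs of both times, edgeR called 0 of 469 miRNAs (0%), and the smallest adjusted p was 0.999. An unadjusted p under 0.05 was reached by 14 (2.99%), 7 in each direction, and DESeq2 called 0 with 10 at an unadjusted p under 0.05. Intervals within a 2-fold change either way were found for 308 of the 469 (65.7%). Without the low pair at 6 h, 0 of 505 were called, 22 had an unadjusted p under 0.05, and 342 intervals (67.7%) lay within those bounds. The level was higher in CBX in all 6 pairs for 10 miRNAs (2.13%) and lower in all 6 for 5 (1.07%). Of these 5, predicted miR-573 had the same counts as predicted miR-358, and the 469 miRNAs tested held 390 distinct sets of counts. Among the 10, predicted miR-191 and predicted miR-700 had nearly equal log2 ratios in every pair and a log2 fold change over both times of 0.25 each. The only known miRNA among these 15 was bta-miR-146a, which is induced by inflammatory signals and is named here after its values were seen, with a log2 fold change over both times of 0.30 ± 0.20 (unadjusted p = 0.168).
The smallest p over both times belonged to predicted miR-171, which was among the 10. It held 270.0, 461 and 81.1 CPM in control and 332, 622 and 251 CPM in CBX at 1 h. At 6 h it held 359, 405 and 166 CPM in control and 490.0, 879 and 529 CPM in CBX, where the groups did not overlap. Fitted log2 fold changes were 0.60 ± 0.34 at 1 h, 1.11 ± 0.47 at 6 h and 0.88 ± 0.26 over both (n = 6 pairs, unadjusted p = 0.00726 by edgeR), and 0.94 over both without the low pair. Its counts were low, between 5 and 70 per library.
Opposite in direction, predicted miR-377 was lower in CBX in all 6 pairs, with a log2 fold change of -0.66 ± 0.21 over both times (unadjusted p = 0.0104). Its levels were 484, 675 and 649 CPM in control and 289, 482 and 472 CPM in CBX at 1 h, without overlap, and 1078, 319.9 and 662 CPM against 567, 299 and 289.9 CPM at 6 h, with overlap.

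Only predicted miR-838 had an unadjusted p under 0.05 with the same sign at both times, among the 381 miRNAs tested at both. Control libraries held 1249, 4694 and 9277 CPM at 1 h and CBX libraries 825, 5578 and 2201 CPM, so that replicate 2 was higher and replicates 1 and 3 lower in CBX. At 6 h the control libraries held 5331, 8508 and 4389 CPM and all 3 CBX libraries lay below them, at 1750, 4321 and 3240 CPM. Fitted values were a log2 fold change of -0.83 ± 0.34 at 1 h (unadjusted p = 0.0226), -0.99 ± 0.38 at 6 h (unadjusted p = 0.0277) and -0.91 ± 0.29 over both (unadjusted p = 0.0106, adjusted p = 0.999 by edgeR). The log2 ratios of the pairs at 1 h were -0.58, 0.25 and -2.06, a spread that the standard error there does not measure. At 1 h the value rested on replicate 3 and was -0.18 ± 0.36 without it, and at 6 h it was -0.68 ± 0.26 without replicate 1.

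The estimated log2 fold changes at the 2 times were nearly uncorrelated across miRNAs. Over the 381 miRNAs, Pearson's r was 0.07 and Spearman's rho 0.01, and 186 of them (48.8%) had the same sign at both times. These are descriptions across miRNAs, which are not independent replicates, and the times shared no library. The median standard errors were 0.31 at 1 h and 0.48 at 6 h, and pairs of 1 time were hardly correlated either, with a median r of -0.06. The correlation between times therefore cannot show whether the effects agreed or differed. For the 102 known miRNAs r was -0.22 and for the 279 predicted miRNAs 0.17. Among the 18 miRNAs whose log2 fold change was 0.5 or more in size at both times, 10 had the same sign. Without the replicate 1 pair at 6 h, r over all was 0.15. No miRNA passed the threshold for a difference between the effects at 6 h and 1 h (0 of 469, 0%, by edgeR and by DESeq2, smallest adjusted p = 0.969), with 6 at an unadjusted p under 0.05 (1.28%) by edgeR and 4 by DESeq2. The standard error of that difference was 0.57 at the median, and its interval lay within -1 to 1 for 25 miRNAs (5.33%), so that the data do not show equal effects either.

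**Figure D2:**
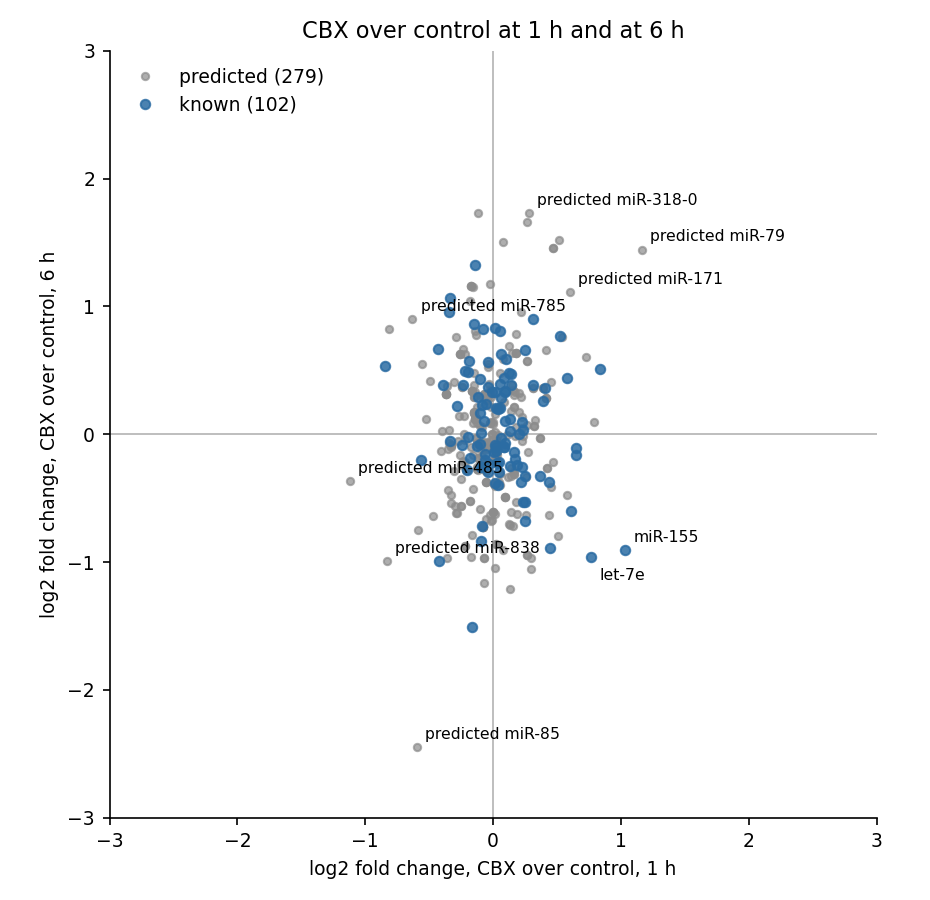
Log2 fold change of CBX over control at 1 h (x axis) and at 6 h (y axis) for the 381 miRNAs tested at both times, 102 known in blue and 279 predicted in grey. The cloud is taller than wide and has no slope (r = 0.07), and predicted miR-79 and predicted miR-171 lie at the upper right while predicted miR-85 and predicted miR-838 lie at the lower left.

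Single pairs were no more alike within a time than between times. The log2 ratios of CBX over control were correlated between pairs across the 469 miRNAs, and the 6 correlations between pairs of 1 time ranged from -0.38 to 0.04, with a median of -0.06. The 3 correlations between pairs of the same number at the other time were 0.02, 0.30 and 0.24, and the 6 between pairs of other numbers and times ranged from -0.24 to 0.09. Pairs of 1 time share the treatment and its duration. What same-numbered pairs share beyond the number is not given in the labels, and some miRNAs described below were found mainly in libraries of 1 number. The standard deviation of the log2 ratios was 0.48, 0.71 and 0.67 in the pairs at 1 h and 1.50, 0.81 and 0.87 at 6 h, the first of these being the low pair.

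**Figure D3:**
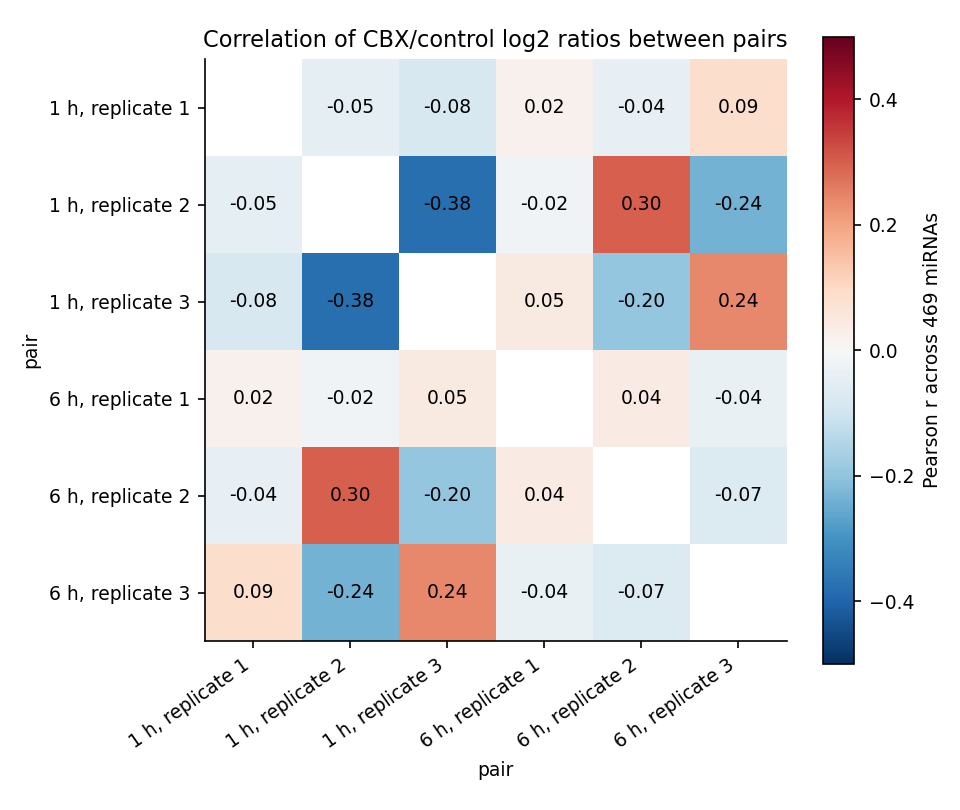
Pearson's r between the CBX over control log2 ratios of any 2 of the 6 pairs, across 469 miRNAs, with red for positive and blue for negative values. The values above 0.2 are those between replicate 2 at 1 h and at 6 h (0.30) and between replicate 3 at 1 h and at 6 h (0.24), and the lowest is that between replicates 2 and 3 at 1 h (-0.38).

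For the 10 known miRNAs with the highest levels the interval of the log2 fold change over both times lay within -1 to 1. At 1 h alone it also lay within these bounds for all 10. At 6 h it passed them for bta-let-7a-5p (-1.44 to 0.39), bta-let-7f (-1.29 to 0.54), bta-let-7i (-1.38 to 0.32) and bta-miR-16a (0.14 to 1.53). The lower end for bta-miR-122 at 6 h also lay just below -1. A 2-fold change at 6 h was thus not excluded for these miRNAs. The highest mean level among the 10 was that of bta-miR-16b, at 74422 CPM. It held 55794, 73360 and 79045 CPM in control and 68964, 74455 and 73789 CPM in CBX at 1 h. Its CBX effect was a log2 fold change of 0.05 ± 0.27 at 1 h, -0.22 ± 0.24 at 6 h and -0.08 ± 0.15 over both, and the interval over both ran from -0.40 to 0.25. Without replicate 1 the value at 6 h was 0.06 ± 0.11. Next were bta-miR-10b at a mean of 52132 CPM and bta-miR-148a at 35496 CPM, with log2 fold changes over both times of -0.23 ± 0.16 and -0.03 ± 0.25.
The other 7 of the 10 were bta-let-7a-5p, bta-let-7f, bta-miR-16a, bta-miR-122, bta-let-7i, bta-miR-7 and bta-miR-30d. Except for bta-miR-16a, at 0.43 ± 0.22, their log2 fold changes over both times lay between -0.13 (bta-let-7i) and 0.22 (bta-miR-7). Among the 5 predicted miRNAs with the highest levels, predicted miR-212 at 83708 CPM exceeded every known one, and its log2 fold change over both was 0.14 ± 0.14. Those of predicted miR-787, predicted miR-777, predicted miR-322 and predicted miR-948 were -0.03 ± 0.12, 0.10 ± 0.16, 0.17 ± 0.21 and -0.05 ± 0.14.

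The let-7 family, whose members share a seed and are known for restraining growth genes in differentiated cells, had values on opposite sides of 0 at the 2 times, on the fits of all 12 libraries. All 8 members had a positive log2 fold change at 1 h, from 0.22 for bta-let-7f to 0.77 for bta-let-7e, with a median of 0.31 beside -0.03 over all 448 miRNAs. Only bta-let-7e had an unadjusted p under 0.05 (0.0281, with 698, 791 and 616 CPM in control and 2383, 1043 and 663 CPM in CBX). Without replicate 1 the median at 1 h was -0.0040 with 4 members on either side. At 6 h, 6 members had a negative value and 2 a positive one, with a median of -0.45 beside -0.03 over all 395. The summed level of the family in the low control library at 6 h was 127349 CPM, where the other 5 libraries at 6 h held 40905 to 74275 CPM and the 6 libraries at 1 h 42687 to 80155 CPM. Without that pair the median at 6 h was 0.12, with 6 members above 0 and 2 below. Family members are nearly identical in sequence, and how reads that fit several of them were counted is not given in the sources used here.

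**Figure D4:**
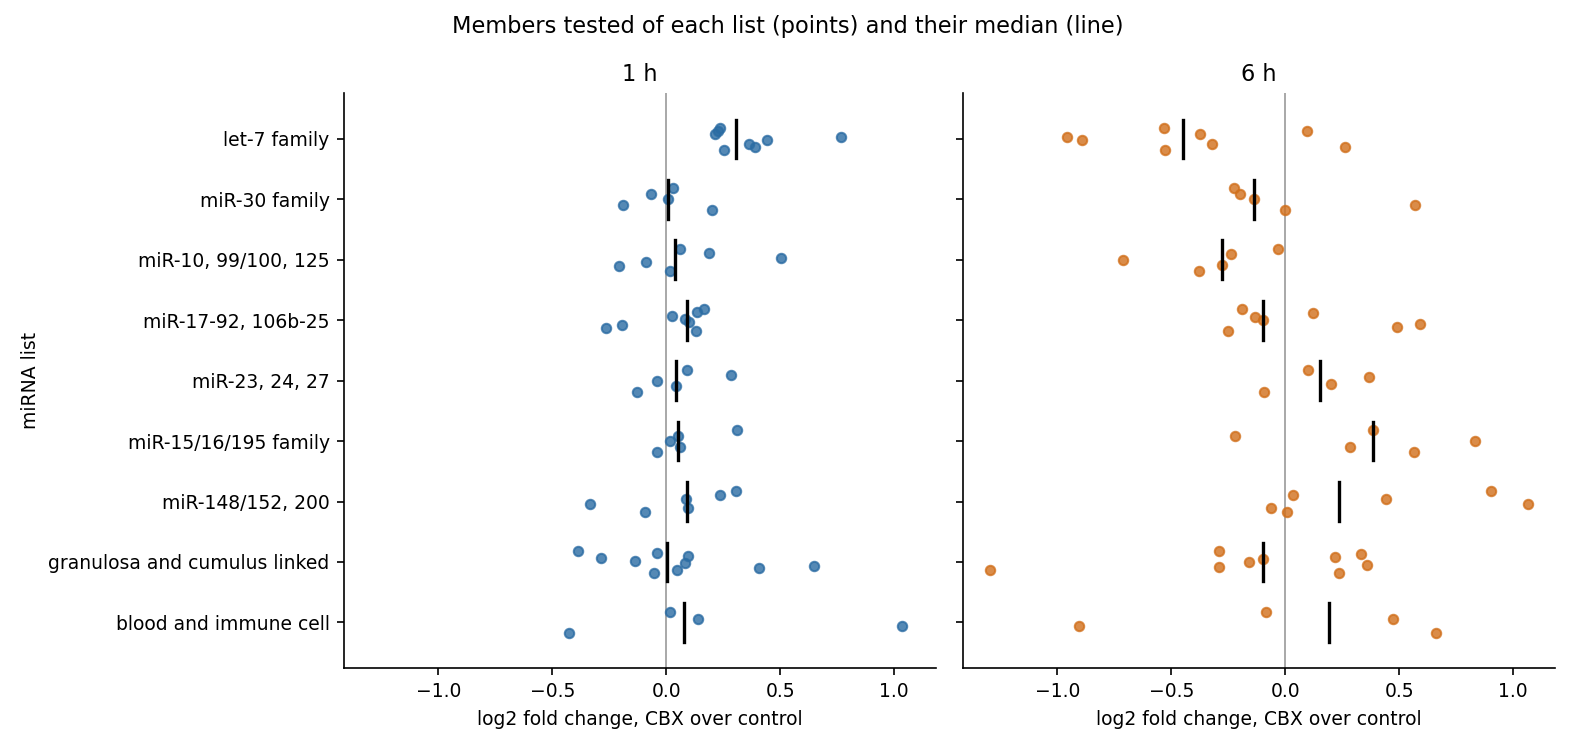
Log2 fold change of CBX over control at 1 h (left, blue) and at 6 h (right, orange) for the tested members of 9 miRNA lists, with a black line at each median. The 8 let-7 members all lie above 0 at 1 h (median 0.31) and 6 of them below 0 at 6 h (median -0.45), and the values of most lists spread more widely at 6 h.

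None of the other families had a member past the threshold at either time. For the miR-10, miR-99, miR-100 and miR-125 families the median was 0.04 over 6 members at 1 h and -0.28 at 6 h, where all 5 tested members were below 0, and it was near 0 (0.00023) without replicate 1. In the family of miR-15, miR-16 and miR-195 4 of 5 members were above 0 at each time, with medians of 0.05 and 0.39, which were -0.04 and 0.06 without replicate 1. With scaling on the known miRNAs alone, 4 of these 5 were below 0 at 1 h, where that scaling also moved the median of all 448 miRNAs to -0.09 and the share above 0 from 44.9% to 34.4%. The miR-30 family had medians of 0.0065 and -0.14 over 5 members, and the miR-17-92 and miR-106b-25 clusters, linked to cell proliferation, 0.09 over 8 and -0.10 over 7. The medians of the miR-26 and miR-29 families were 0.04 over 4 members and 0.42 over 2, those of the miR-23, miR-24 and miR-27 clusters 0.04 over 5 and 0.15 over 4, and those of the miR-148, miR-152 and miR-200 families 0.09 and 0.24 over 6. When each replicate was left out in turn, the medians of all 5 of these lists changed sign at 1 h, and at 6 h only those of miR-26 and miR-29 and of miR-23, miR-24 and miR-27 did not. At 1 h, leaving out 1 replicate gave -0.24 to 0.18 for miR-30, -0.0033 to 0.29 for miR-17-92 and miR-106b-25, -0.00016 to 0.12 for miR-26 and miR-29, -0.15 to 0.15 for miR-23, miR-24 and miR-27 and -0.11 to 0.35 for miR-148, miR-152 and miR-200. At 6 h the ranges in the same order were -0.10 to 0.03, -0.06 to 0.11, 0.21 to 0.63, 0.0047 to 0.22 and -0.02 to 0.77. The values at 6 h without replicate 1 were -0.10, -0.01, 0.21, 0.0047 and 0.14. Under the scaling on known miRNAs the medians at 1 h of the lists of miR-30, of miR-10, miR-99, miR-100 and miR-125, of miR-26 and miR-29 and of miR-23, miR-24 and miR-27 were also below 0, at -0.06, -0.02, -0.02 and -0.02. The most abundant members of the lists of miR-26 and miR-29, of miR-17-92 and miR-106b-25 and of miR-23, miR-24 and miR-27 were bta-miR-26a, bta-miR-92a and bta-miR-27b, with log2 fold changes over both times of 0.12 ± 0.13, -0.04 ± 0.19 and 0.10 ± 0.16. Of the 148 members of the ruminant family of miR-2284 and miR-2285, 40 had counts and 2 passed the low-count filter at each time. The most abundant of them, bta-miR-2285bf, had a log2 fold change over both times of -0.16 ± 0.26.

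The 5 miRNAs that the study named for CBX against control at 22 h were followed at the early times. The level of bta-miR-21-5p, known for its link to cell survival in cumulus cells, was 5873, 3327 and 3908 CPM in control and 6510, 3070 and 3588 CPM in CBX at 1 h. At 6 h it was 3654, 3454 and 3511 CPM in control and 5909, 3348 and 3616 CPM in CBX, where replicate 1 alone stood apart. The log2 fold change was -0.05 ± 0.24 at 1 h, with an interval from -0.55 to 0.44, and 0.24 ± 0.36 at 6 h, with an interval from -0.57 to 1.04. Without replicate 1 the value at 6 h was 0.03 ± 0.24. A 2-fold lower level of bta-miR-21-5p lay outside the interval at both times. Its other arm, bta-miR-21-3p, had 0 counts in all 12 libraries.

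For predicted miR-895 the CBX library was lower in 2 of 3 pairs at each time. It held 135, 544 and 194.6 CPM in control and 306, 201 and 121 CPM in CBX at 1 h, and 299.5, 597 and 331 CPM in control and 84.0, 374 and 375 CPM in CBX at 6 h. The log2 fold change was -0.28 ± 0.45 at 1 h and -0.62 ± 0.53 at 6 h, with an interval from -1.81 to 0.57 that includes a 2-fold lower level. The value at 6 h was -0.23 ± 0.37 without replicate 1 and -1.14 ± 0.73 without replicate 3. For predicted miR-906 it was 0.11 ± 0.26 at 1 h and near 0 (-0.0074 ± 0.62) at 6 h, where it was -0.91 ± 0.46 without replicate 1 and 0.85 ± 0.80 without replicate 3. For predicted miR-162 it was 0.08 ± 0.25 at 1 h and 0.59 ± 0.37 at 6 h, where the CBX library was the higher in all 3 pairs, with 2935, 5310 and 1838 CPM in control and 4655, 5705 and 3633 CPM in CBX. For predicted miR-364 the counts were too low to be tested. They were 4, 2 and 2 in control and 12, 3 and 1 in CBX at 1 h, and 2, 4 and 0 in control and 21, 7 and 10 in CBX at 6 h. Of the 4 tested, 0 had an unadjusted p under 0.05 at either time, and the medians were 0.01 and 0.11. At 1 h the median was -0.06 without replicate 3, and at 6 h it was -0.10 without replicate 1 and 0.34 without replicate 3, so neither kept its sign. Because the study named these miRNAs in both directions, their median cannot show whether the early values followed those at 22 h.

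The 8 miRNAs that the study named for CBX against co-cultured or denuded oocytes at 1 h or 6 h had medians of 0.19 at 1 h and 0.96 over 7 tested at 6 h. At 1 h the median was 0.05, 0.49 and -0.06 without replicates 1, 2 and 3 in turn, and at 6 h it was 0.71, 1.09 and 0.47. That choice used the CBX libraries examined here, so the direction of these values is not independent evidence. Beside predicted miR-79, predicted miR-559 and the overlapping predicted miR-318-0 had log2 fold changes at 6 h of 1.46 ± 0.84 and 1.73 ± 0.80. Control replicate 1 at 6 h held 1 and 0 counts of them and its CBX pair 547 and 176, and without that pair the values were 0.41 ± 0.49 and 0.89 ± 0.58. At 1 h they were 0.47 ± 0.34 and 0.28 ± 0.39.
For predicted miR-457 the CBX library was the higher in all 6 pairs, with 419, 469 and 331 CPM in control and 1120, 804 and 546 CPM in CBX at 6 h, without overlap. Its log2 fold change was 0.21 ± 0.28 at 1 h, 0.96 ± 0.44 at 6 h (0.78 ± 0.26 without replicate 1) and 0.56 ± 0.23 over both (unadjusted p = 0.0335). For predicted miR-485 the control libraries at 1 h ranged widely, at 1238, 9339 and 16039 CPM, while the CBX libraries held 2902, 2749 and 2985 CPM. Its log2 fold change was -1.12 ± 0.48 at 1 h (unadjusted p = 0.0292, adjusted p = 0.997) and passed the threshold without replicate 1, at -2.10 ± 0.26 (adjusted p = 0.00808). Without replicate 3 it was -0.31 ± 0.40, and at 6 h it was -0.37 ± 0.52 (-0.13 ± 0.72 without replicate 1). The values of predicted miR-484 were 0.18 ± 0.30 and 0.64 ± 0.47, and those of predicted miR-824 -0.22 ± 0.38 and 0.63 ± 0.42.

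**Figure D5:**
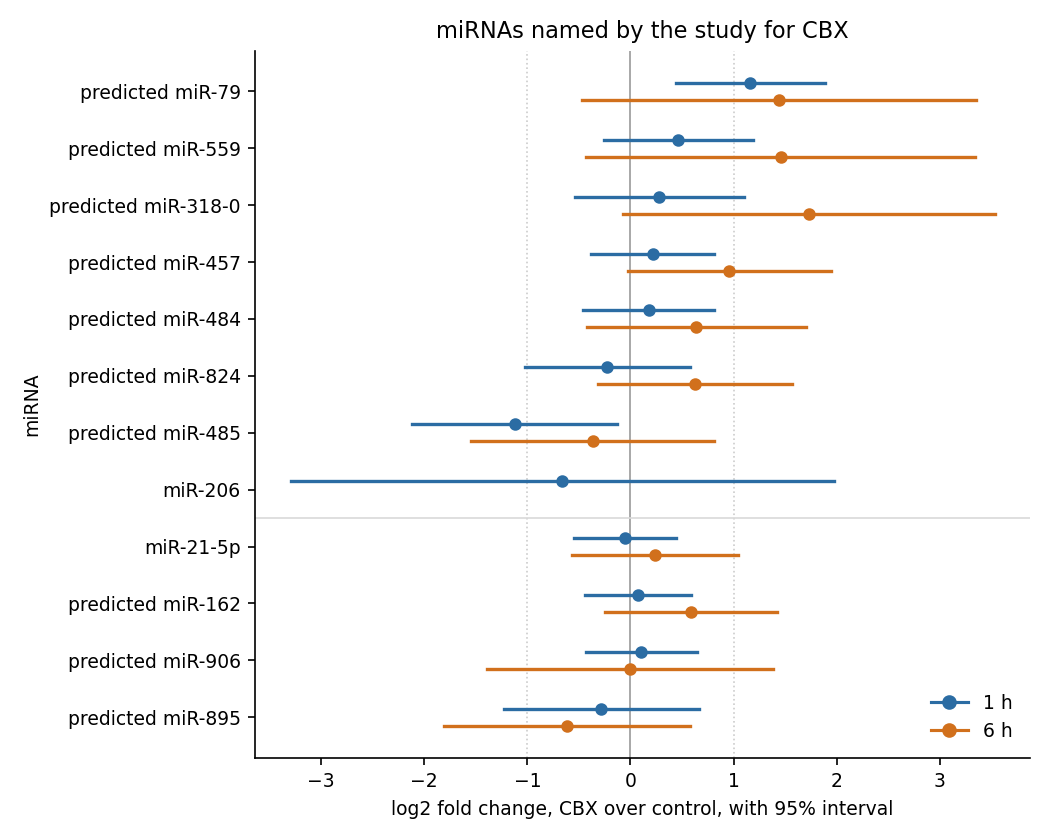
Log2 fold change of CBX over control (points) with its 95% interval (lines) at 1 h in blue and 6 h in orange, for the miRNAs named by the study for CBX against co-cultured or denuded oocytes (above the grey line) and against control at 22 h (below it). Only the intervals of predicted miR-79 and predicted miR-485 at 1 h leave out 0, and the intervals at 6 h are the wider ones. At 6 h miR-206 was not tested.

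The eighth of them, bta-miR-206, is a miRNA of skeletal muscle and varied widely between control libraries. Control replicate 2 held 296 counts at 1 h and 610 at 6 h, against 12 and 3 in its CBX pairs, while control replicates 1 and 3 held 3 and 0 counts at each time. CBX replicate 3 at 1 h held 89 counts, so the sign of the difference was not shared by the pairs. At 1 h the log2 fold change was -0.66 ± 1.26 (unadjusted p = 0.605 by edgeR), and it was not tested at 6 h. Without replicate 3 it passed the threshold at -3.91 ± 0.53 (adjusted p = 3.62e-10 by edgeR). The pairs left there had log2 ratios of -0.46 and -4.19, so that value rested on replicate 2. Its standard error and p draw on all miRNAs tested and do not measure the spread of these pairs. Over both times the log2 fold change was -1.61 ± 1.87, and 2.51 ± 1.37 without replicate 2. Chosen after the values were seen, the miRNA most like it across the 12 libraries was predicted miR-820 (r = 0.93 of log2 levels), with 59 and 130 counts in control replicate 2 at 1 h and 6 h and at most 15 elsewhere. A known miRNA, bta-miR-184, was also high in these libraries, with 194 and 575 counts against 12 to 75 elsewhere (r = 0.91). The other muscle miRNAs were nearly absent: bta-miR-1 had 0 to 6 counts per library and bta-miR-133a 0 counts in all 12.

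Other predicted miRNAs, also chosen after their values were seen, were carried by 1 to 3 libraries. Of these, 6 (predicted miR-16, predicted miR-296, predicted miR-327, predicted miR-451, predicted miR-669 and predicted miR-693) summed to 746 counts in control replicate 3 at 1 h and had at most 2 counts in any other library, and no other library held a miRNA with at least 20 counts that was so confined. In the opposite direction, predicted miR-408 had 14 counts in CBX replicate 2 at 1 h. At 6 h it had 28 and 15 in CBX replicates 1 and 2, and any other library held at most 1. It passed the low-count filter over both times through these CBX libraries alone and was tested at neither single time. Its p over both times was among the 5 smallest, but for this reason is no evidence of a change. The counts of predicted miR-850 were 8, 27 and 5 in these 3 CBX libraries and those of predicted miR-257 10, 6 and 18, with at most 2 elsewhere. CBX replicate 3 held 0 counts of predicted miR-408 and of predicted miR-850 at both times. For predicted miR-195, among the 5 smallest p-values for a difference between the times (log2 difference 2.30), counts came from replicate 3 except for 1 count in CBX replicate 1 at 6 h. They were 77 in control and 43 in CBX at 1 h, and 33 in control and 56 in CBX at 6 h. The difference thus rests on 1 pair at each time, and its p cannot measure a spread between pairs.

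MiRNAs known from other cells of the ovary were examined as lists. Of 20 miRNAs linked to granulosa and cumulus cells, many of which oocytes also express, 18 had counts, and their summed level was 12715 to 18801 CPM in control and 13121 to 23002 CPM in CBX at 1 h. At 6 h it was 11259 to 15668 CPM in control and 9839 to 17922 CPM in CBX. The CBX sum was the higher in 3 of the 6 pairs. At 1 h 10 of them were tested, with a median of 0.0015. Of these, bta-miR-34a, a miRNA induced by p53 and named here after its values were seen, was the only one with an unadjusted p under 0.05, at a log2 fold change of 0.65 ± 0.30 (unadjusted p = 0.0443 by edgeR). For bta-miR-34a the value was -0.16 ± 0.43 at 6 h, or 0.0044 ± 0.26 without replicate 1. At 6 h 9 were tested, with a median of -0.10, and 0 had an unadjusted p under 0.05. The median at 6 h was -0.18 without replicate 1 and 0.14 without replicate 2.
Blood and immune miRNAs summed to 3130 to 7128 CPM over the 12 libraries, higher in CBX in 3 of 6 pairs, and nearly all of it came from bta-miR-146a, bta-miR-146b, bta-miR-155 and bta-miR-150. Summed over the 12 libraries, the erythrocyte miRNAs bta-miR-451 and bta-miR-144 had 5 counts each, and the leukocyte miRNA bta-miR-142-3p had 0. The sums of the other members, bta-miR-486, bta-miR-223 and bta-miR-142-5p, were 21, 22 and 2 counts. The endothelial bta-miR-126 arms summed to 0 to 313 CPM. Of the miR-302/367 cluster and bta-miR-371, which mark pluripotent cells, counts were found only in the replicate 2 pair at 6 h, at 42.6 CPM in control and 37.4 CPM in CBX. These came from bta-miR-302b and bta-miR-302d, with at most 1 count of each per library, below the floor of 3 counts. The part of other cells in any value above was not tested.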

How the data were processed

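Per the labels and the study's methods, the authors made QIAseq miRNA libraries, removed duplicate reads by unique molecular identifier (UMI-tools 1.1.2 in the submitters' processing notes), aligned them to ARS-UCD1.2 and deposited whole-number counts per known (miRBase) or predicted (miRPro) mature miRNA, without normalization. Groups came from the titles. Both tables were joined and fitted with edgeR 4.0.16 (limma 3.58.1, R 4.3.3): filterByExpr by group (minimum count 10, minimum total 15), TMM, the quasi-likelihood F-test in its legacy form, a block for the replicate number, and p-values adjusted by Benjamini-Hochberg over all miRNAs tested. The 4 models were 1 h, 6 h, both times with 6 pair blocks, and the difference between times. The study's methods enter the ovary pool as a batch, for which the replicate number stands here. The correlation of same-numbered libraries' deviations was 0.55, 0.25 and -0.0050 at 1 h and 0.07, 0.40 and -0.11 at 6 h. These values do not show that all same-numbered libraries share a source, although some miRNAs were found mainly in libraries of 1 number. The block, the pair ratios, the counts of pairs and the sign-flip test join libraries by number all the same. Fits without the block are given below. Standard errors are the log2 fold change divided by the square root of F. Like the intervals and p-values, they draw on a spread estimated in part across all miRNAs tested. CPM values were scaled with TMM over the 12 libraries, and pair ratios used a prior count of 2.

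Named miRNAs were the 10 known and 5 predicted with the highest levels, the 5 with the smallest p in each model, those with p under 0.05 and 1 sign at both times, those the study named for CBX, and the most abundant member of each of the other lists, and others are marked as chosen after their values were seen. The comparison, members and lists were chosen with earlier results of these data known, and the filter was chosen after running it on the study's own supplementary count table to see how many miRNAs it left. Sequences came from the study's supplement. Alternatives were other scalings, filters, tables and tools (DESeq2 1.42.0), no block, and leaving out replicates. Leaving out only the replicate 1 pair at 6 h was added after the values were seen.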

Additional observations from a re-analysis of the deposited data

Results flagged for a closer look

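In 2 named miRNAs the CBX library lay on one side of its control in every pair at 1 h and on the other side in every pair at 6 h, a pattern held by 8 of the 469 miRNAs tested (1.71%). Both were named for a p among the 5 smallest for the difference between times, so the pattern is not independent of that choice. The level of predicted miR-785 was lower in CBX in all 3 pairs at 1 h, with 810.1, 395 and 438 CPM in control and 459.5, 281 and 322 CPM in CBX. At 6 h it was higher in all 3 pairs and the groups did not overlap, with 299.5, 319.9 and 199 CPM in control and 602, 449 and 460.5 CPM in CBX. Fitted log2 fold changes were -0.63 ± 0.29 at 1 h and 0.90 ± 0.46 at 6 h, and 0.87 ± 0.37 at 6 h without replicate 1. The difference between the times was 1.49 ± 0.44 (unadjusted p = 0.00776, adjusted p = 0.969 by edgeR), which does not pass the threshold.

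The let-7 member bta-let-7d showed the opposite order. It held 461, 346 and 243 CPM in control and 681, 461 and 322 CPM in CBX at 1 h, and 659, 341 and 431 CPM in control and 217, 168 and 375 CPM in CBX at 6 h. The difference between the times was -1.36 ± 0.49 (unadjusted p = 0.0214, adjusted p = 0.969 by edgeR). Without the replicate 1 pair the value at 6 h was -0.51 ± 0.39 against -0.89 ± 0.49 with it.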

How the results depend on the processing

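The counts of 0 calls at 1 h, at 6 h, over both times and for the difference between times were also 0 under every other scaling, tool and table tried. They were not 0 without a low-count filter, where 11 miRNAs were called at 1 h, 6 at 6 h and 6 over both times, and, at 1 h, with a replicate left out (0 to 4). Among these, the 6 predicted miRNAs of control replicate 3 at 1 h made up 6 of the 11, and predicted miR-79, predicted miR-485 and predicted miR-919 were 3 of the others. The 6 at 6 h were predicted miR-85, predicted miR-198, predicted miR-408, predicted miR-624, predicted miR-625 and predicted miR-820. Without replicate 3 the 4 calls at 1 h were bta-miR-206, predicted miR-79, predicted miR-820 and predicted miR-919. With no replicate block, 0 were called in all 4 models, with 1, 7, 10 and 5 at an unadjusted p under 0.05 (edgeR) against 11, 7, 14 and 6 with it, and the block changed no call. The number of intervals within a 2-fold change moved at 1 h to 134 (DESeq2), 65 (known miRNAs alone) and 150 to 209 (a replicate left out), at 6 h to 26 (library totals), 20 (DESeq2), 21 (no filter), 14 (known alone), 25 (predicted alone) and 0 to 112, and over both times to 72 (known alone) and 161 to 268. Fewer miRNAs or libraries entered the fits of the known or predicted table and of a left-out replicate, and for the others the cause was not tested. The correlation between times was -0.24 in the fits of known miRNAs alone and -0.02 to 0.18 with a replicate left out.

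Of the alternative values of 65 results, 870 had the same direction and call, 6 were called where the main value was not, and 54 had the opposite sign, none of which was called. With a replicate left out, the log2 fold changes at 1 h ranged from -0.092 to 0.49 for predicted miR-484, -0.12 to 0.0098 for bta-miR-21-5p, -1.09 to 0.37 for predicted miR-895, -0.011 to 0.22 for predicted miR-906, -0.11 to 0.20 for predicted miR-162, -0.14 to 1.07 for predicted miR-559, -0.80 to 0.56 for predicted miR-824 and -0.28 to 0.96 for predicted miR-318-0, and at 6 h from -0.91 to 0.85 for predicted miR-906 and -1.10 to 0.22 for predicted miR-485. For predicted miR-906 at 6 h the value was 0.093 with no replicate block, 0.018 with library totals, 0.011 by DESeq2, 0.14 without a filter and 0.027 among predicted miRNAs alone.
Over both times, a left-out replicate gave ranges of -0.54 to 0.43 for bta-miR-155, -0.44 to 0.23 for bta-miR-148a, -0.18 to 0.064 for bta-let-7f, -0.071 to 0.068 for predicted miR-787, -0.12 to 0.045 for predicted miR-948, -0.26 to 0.24 for bta-miR-92a, -0.11 to 0.0057 for bta-miR-16b, -0.35 to 0.034 for bta-miR-10b, -0.19 to 0.035 for bta-let-7a-5p, -0.18 to 0.078 for bta-miR-122, -0.23 to 0.050 for bta-let-7i, -0.033 to 0.44 for predicted miR-322, -0.019 to 0.19 for bta-miR-27b, -0.051 to 0.21 for bta-miR-21-5p, -4.51 to 2.51 for bta-miR-206 and -0.29 to 0.015 for bta-miR-2285bf. For bta-miR-155 the value was 0.15 with no replicate block and 0.00046 by DESeq2. Without a filter it was 0.047 for bta-miR-155, 0.045 for bta-miR-148a, 0.00089 for bta-let-7f, 0.046 for predicted miR-787, 0.026 for predicted miR-948 and 0.030 for bta-miR-92a. Without the low pair at 6 h alone it was 0.50 for bta-miR-155, 0.15 for bta-miR-148a, 0.23 for bta-let-7f, 0.044 for predicted miR-787, 0.13 for bta-miR-92a, 0.068 for bta-miR-16b, 0.21 for bta-let-7a-5p, 0.12 for bta-miR-122, 0.15 for bta-let-7i, -0.0091 for predicted miR-322, -0.0078 for bta-miR-21-5p and -0.0064 for predicted miR-777. Depth limited the control library of replicate 1 at 6 h most, where 3 counts correspond to 148.7 CPM on the raw total and 179.7 TMM-normalized CPM.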
